A study of Mus musculus with 12 samples.

Results

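The difference between arrays labelled plus and arrays labelled minus was described in control mouse blood cells, across all genes measured. The members were the 6 control arrays of a series of 12, chosen by title: 3 titles with the letters CMPCTL, CC or CTLCMP that end in a plus sign, and the 3 with the same letters that end in a minus sign. The study compared mice that lack the genes Stat5a and Stat5b in blood cells with mice that have them, each in a plus and a minus form. The controls have both genes, and the other 6 arrays, 3 plus and 3 minus, are labelled as Stat5 knockouts. The treatment protocols call the plus arrays treated with CMP and the minus arrays treated without it. The titles of 2 of the 3 forms, however, write CMP on plus and minus arrays alike. The labels therefore leave unsettled what the sign stands for, and plus and minus are used here only as names of the groups. Each title form gave 1 plus and 1 minus control array, called here pair A (CMPCTL), pair B (CC) and pair C (CTLCMP). How the genes were removed and the strain, age, sex, dose, time and isolation of the cells are not given in the sources used here. No label says that the arrays of a group came from separate animals or cultures, so the p-values measure only the spread between these samples.

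Blood-forming cells read outside signals through cytokine receptors. Receptor-bound JAK kinases phosphorylate STAT factors, which enter the nucleus and switch on target genes, among them their own inhibitors such as Cish. Growth of such cells draws on MYC, on the making of ribosomes and nucleotides and on mitochondrial respiration. When amino acids run short or misfolded proteins build up, the factor ATF4 turns on genes for amino acid synthesis and uptake. Low membrane sterol releases the SREBP factors, which turn on cholesterol synthesis, and oxidative stress releases NRF2, which turns on glutathione synthesis. Immediate early genes such as Fos, Jun and Egr1 are transcribed within minutes of a stimulus or of mechanical or thermal stress, and are then shut off.

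RNA of each sample was hybridised to a one-colour Affymetrix array. The authors' MAS5 signals, which are linear brightness values, had the same trimmed mean of 500 in every array. The median signal was 59.7 to 88.1 in the minus and 77.3 to 114 in the plus control arrays. Ptprc, the CD45 antigen of blood cells, was bright in all 6 arrays, at 9414, 6938 and 8534 in the minus and 13167, 11389 and 10226 in the plus arrays of pairs A, B and C, the order kept in all lists of signals below. Kit, the stem cell factor receptor, gave 6762, 1647 and 4289 in the minus and 6867, 2331 and 5475 in the plus arrays. The T cell gene Cd3d lay between 2.46 and 11.7 and the globin gene Hba-a1 between 6.03 and 55.9. As a sign of RNA quality, signal at the 3' end of the beta-actin transcript over that at its 5' end was higher in the plus array of each pair, by 1.35, 0.76 and 0.59 on the log2 scale, a mean of 0.90 ± 0.40 (SD over 3 pairs). A two-sided exact test that turned the signs of the pairs gave p = 0.25, and 3 pairs allow none below it. The Gapdh ratio differed by 2.17, -0.007 and 0.79. The beta-actin ratio itself was 0.79, 4.30 and 0.30 in the minus and 2.14, 5.06 and 0.89 in the plus arrays, highest in both arrays of pair B. The part of RNA quality in the results was not tested, and counts from a fit with this ratio as a term (the beta-actin covariate) are given beside the lists whose counts it moved by over 1.5 times and some others. Xist, which is transcribed from the inactive X chromosome, was at 116, 233 and 10761 in the minus and 202, 346 and 12509 in the plus arrays, and the Y-linked gene Eif2s3y at 2353, 2292 and 745 and 2112, 2233 and 768. Xist was bright in both arrays of pair C, which also held Eif2s3y, and dim in pairs A and B.

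Of 18194 genes named by single-symbol probe sets, 10583 had a mean above the level filter (6.76 on the log2 scale, the median of all probe sets) and were tested. Of these, 1119 were higher and 1225 lower in the plus arrays, which is 10.6% and 11.6% of the genes and 22.1% in all. A gene is called here when its limma p, adjusted over all these genes, is below 0.05. Differences are on the scale of log2(signal + 32), which understates those of dim genes. More than 2-fold differences were seen in 663 of the genes called higher (6.26% of all) and 586 called lower (5.54%). More than 4-fold differences were seen in 133 and 59, more than 8-fold ones in 37 and 8, and more than 16-fold ones in 7 and 1. The far end of the distribution thus held mostly rises, while the falls were more often of 2-fold or less, with 639 of the genes called lower against 456 called higher. Genes dim in the minus or in the plus arrays could pass the level filter through their brighter arrays. Trib3, Pmepa1, Acod1 and Chac1 did so among the largest rises, and Sik1 and Jchain among the largest falls. The sizes of such differences rest on dim signals, and their part in this balance was not tested. The median over all tested genes was -0.02.

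**Figure D1:**
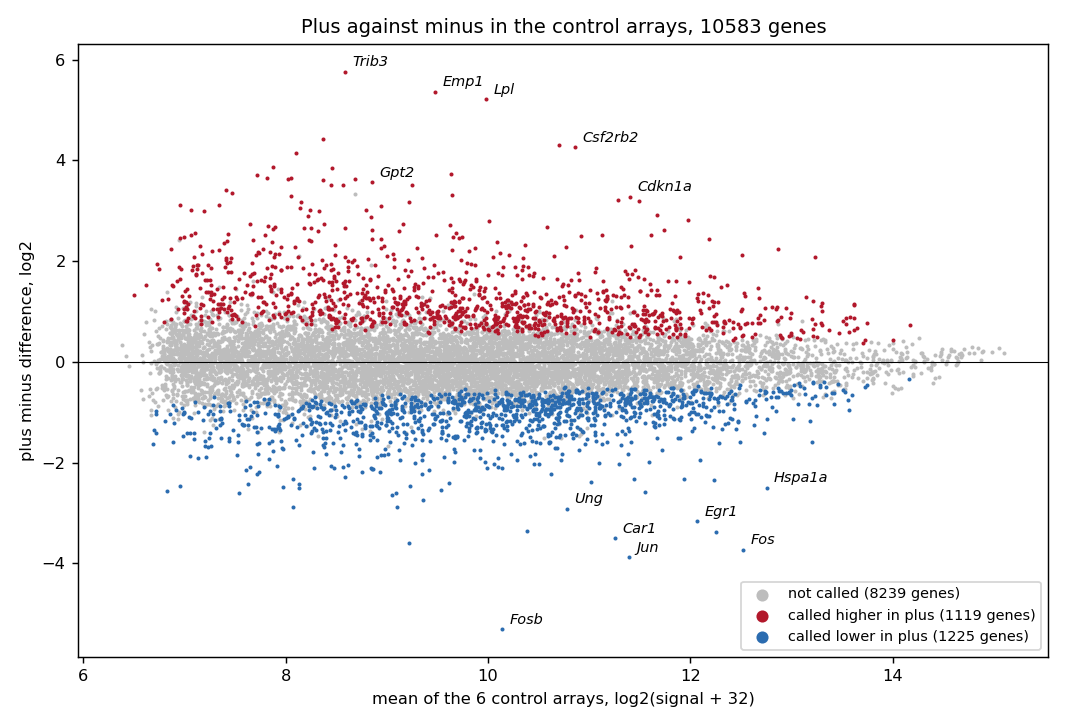
Plus minus difference of each of the 10583 genes tested (vertical axis, log2) against its mean over the 6 control arrays (horizontal axis, log2(signal + 32)); red points are the 1119 genes called higher, blue points the 1225 called lower, and grey points the genes not called. Trib3, Emp1 and Lpl stand highest and Fosb lowest, and genes were called in both directions over most of the range of levels.

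The pairs moved together at the called genes. Of the genes called higher, 1114 were higher in all 3 pairs, and of those called lower, 1223 were lower in all 3, as the test rewards. Over all tested genes 6109 (57.7%) had the same sign in the 3 pairs. In 845 of the genes called higher the lowest plus array lay above the highest minus array, and 843 of those called lower showed the reverse. Over all tested genes the groups did not overlap in 1335 (12.6%) upward and 1324 (12.5%) downward. Pair B gave the widest differences, with 1423 genes over 2-fold higher and 1295 over 2-fold lower, against 758 and 600 in pair A and 713 and 813 in pair C. Both control arrays of pair B also had the highest beta-actin 3' to 5' ratios, and the part of RNA quality in these differences was not tested. Without the arrays of pair A, B or C in both genotypes, 548, 1376 and 332 genes were called higher and 507, 1698 and 239 lower. The fit holds the title form as a block, and without this block 279 genes were called higher and 191 lower. When arrays were centred on their medians, the median over all genes moved to -0.22, and 728 genes were called higher and 1892 lower, or 27.8% higher in place of 47.7%. Differences are given on the deposited scaling, and lists whose median turned sign under another scaling are named below. A single array is called below by its sign and pair, as minus array A. The counts without single arrays name those that moved a count by over 1.5 times.

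Receptor chains of the myeloid growth factors were among the sharpest rises. Csf2rb2 (chr15:78282507-78305721 in build GRCm38.p6), a beta chain of the mouse interleukin 3 receptor, gave signals of 261, 501 and 461 in the minus arrays and 5142, 11758 and 8908 in the plus arrays. The groups lay far apart, and the difference was 4.26 ± 0.33 (mean of 3 pairs ± SE of the fit, limma adjusted p = 2.33e-05), with 4.14, 4.47 and 4.18 in pairs A, B and C. Its neighbour Csf2rb (chr15:78325800-78351001), the beta chain shared by the receptors of GM-CSF, interleukin 3 and interleukin 5, rose from 1765, 1077 and 1750.0 to 9248, 12962 and 10137, by 2.81 ± 0.27 (limma adjusted p = 7.6e-05). Both genes are close copies in sequence, so that their probe sets may share signal. The ligand-binding chains Csf2ra (-0.39) and Il3ra (-0.06) were not called, and neither were the receptors Csf3r (-0.15), Csf1r (0.46), Kit (0.29) and Flt3 (-0.63). Of 23 receptor genes tested, 5 rose and 1 fell, or 26.1% called against 22.1% of all genes, with a median of 0.29. Lifr, for leukemia inhibitory factor, rose by 1.93 ± 0.37, Tnfrsf1b, for tumor necrosis factor, by 1.36 ± 0.27, and Il6ra, for interleukin 6, by 0.80 ± 0.26. Ifngr1, for interferon gamma, fell by 1.36 ± 0.25, from 2398, 2011 and 2166 to 1588, 482 and 746. The rises in this list numbered 4, 5 and 3 without pair A, B or C, and 4 to 5 without single control arrays. The falls among cytokine and growth factor receptors numbered 1, 1 and 0 without pair A, B or C, and 1 whichever single control array was left out, and 2 with the beta-actin covariate. The call of Lifr was lost with the beta-actin covariate.

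Some inhibitors of cytokine receptor signalling rose too. Cish, which STAT5 switches on and which blocks STAT5 docking, gave 577, 795 and 385 in the minus arrays and 2041, 4960.4 and 2446 in the plus arrays, without overlap (2.31 ± 0.24, limma adjusted p = 0.000114). Socs3, which blocks JAK kinases, rose by 2.48 ± 0.48, and Bcl6, a repressor, by 2.05 ± 0.37, from 234, 232 and 229 to 1003, 1532 and 770.3. Cyclin D1, Ccnd1, fell by 1.46 ± 0.33. The other 10 of the 14 STAT5 target genes tested were not called, among them Socs2 (0.54), Pim1 (0.81), Pim2 (0.61) and Bcl2l1 (0.20), and the list's median was 0.28. The list does not separate targets that STAT5 raises from targets that it lowers, so its rises need not point one way. Among 26 STAT factors, JAK kinases and their regulators, 4 rose: Sh2b3, the adaptor LNK that restrains JAK2 (1.82 ± 0.21), Jak2 itself (0.66 ± 0.16), Socs5 (0.94 ± 0.25) and the phosphatase Ptprc (0.49 ± 0.15). This count was 2, 5 and 1 without pair A, B or C, and 1 to 3 without single control arrays (1 without minus array C and 1 without plus array C). Stat5a (-0.32 ± 0.29) and Stat5b (-0.41 ± 0.33) were not called (limma adjusted p = 0.459 and 0.404). The falls among STAT5 target genes numbered 0, 2 and 1 without pair A, B or C, and 0 to 1 without single control arrays (0 without minus array A), and 0 with the beta-actin covariate. STAT5 target genes had 1 rise with the beta-actin covariate. STAT factors, JAK kinases and their regulators had 2 rises with the beta-actin covariate and 1 with arrays centred on their medians. Jak2, Socs5 and Ptprc lost their calls under that centring. The share of this list that was called, 15.4%, was below the 22.1% over all genes. The calls of Socs3, Bcl6, Ccnd1, Jak2 and Ptprc were lost with the beta-actin covariate. The 2 probe sets of Ptprc gave -0.16 and 0.49.

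Genes that ATF4 and amino acid shortage turn on had the highest share of rises of the 56 lists used. Of 16 stress regulators tested, 12 rose and none fell, and their median was 1.74, with 2.08, 1.28 and 1.27 in pairs A, B and C. Trib3, a pseudokinase that feeds back on ATF4, gave 6.80, 5.53 and 66.3 in the minus arrays and 2317, 4531 and 2084 in the plus arrays, so that it was dim in every minus array and bright in every plus array (5.76 ± 0.49). Chac1, which cleaves glutathione, rose from 18.7, 97.5 and 89.7 to 1422, 1028 and 1495, and Nupr1, a stress-induced nuclear protein, from 27.7, 234 and 21.4 to 1038, 2868 and 465. Vldlr, a lipoprotein receptor that ATF4 induces, rose by 2.80 ± 0.32, Ddit3, the factor CHOP, by 2.05 ± 0.30, Sesn2, which restrains mTORC1, by 2.28 ± 0.38, and Eif4ebp1, which restrains translation, by 1.31 ± 0.15. The rises numbered 8, 13 and 8 without pair A, B or C, and 9 to 12 without single control arrays, and 9 with the beta-actin covariate. The minus means of Trib3, Chac1 and Nupr1 lay below the level filter, so that the sizes of their rises rest on dim signals. The call of Sesn2 was lost with the beta-actin covariate.

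Enzymes and carriers of amino acids followed. Gpt2 (chr8:85492576-85528902), the mitochondrial alanine transaminase, had one of the smallest p-values of the comparison and gave 98.9, 122 and 89.5 in the minus arrays and 1602, 1842 and 1294 in the plus arrays (3.56 ± 0.21, limma adjusted p = 1.16e-05), a like rise in each pair (3.64, 3.60 and 3.45). Its 4 probe sets gave 0.10 to 3.56. Asns, which makes asparagine, rose from 1150.0, 1256 and 1426 to 8743, 6287 and 7648, and Mthfd2, of mitochondrial folate metabolism, from 1090.2, 745 and 1877 to 7756, 9339 and 9738. Bcat1, of branched-chain amino acids (2.23 ± 0.35), and Cth, which makes cysteine (1.85 ± 0.27), rose from dim signals. Of 18 synthesis genes 10 rose and 3 fell, around a median of 0.70. The falls were Pycrl, of proline synthesis (-1.31 ± 0.24), Shmt1, the cytosolic serine hydroxymethyltransferase (-1.13 ± 0.25), and Got2, the mitochondrial aspartate transaminase (-0.56 ± 0.17). The rises numbered 6, 10 and 6 without pair A, B or C, and 9 to 10 without single control arrays, and 5 with the beta-actin covariate. The falls among amino acid and one-carbon synthesis genes numbered 1, 3 and 0 without pair A, B or C, and 1 to 3 without single control arrays (1 without minus array C and 1 without plus array C).

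Of 20 amino acid transporters, 9 rose, none fell and the median was 0.97. Slc7a11, which imports cystine, gave 15.9, 39.2 and 10.2 in the minus arrays and 466, 501 and 612 in the plus arrays (3.40 ± 0.25), and Slc7a3, for arginine and lysine, 46.4, 41.8 and 40.8 in the minus arrays and 1346, 560.3 and 981 in the plus arrays (3.65 ± 0.31). Every plus array stood above every minus array for both. Slc6a9, for glycine, rose by 2.73 ± 0.27, Slc7a1 by 1.29 ± 0.20, Slc38a2, for glutamine and alanine, by 1.08 ± 0.15, and Slc3a2, the shared heavy chain, by 1.19 ± 0.17. The count was 10, 9 and 8 without pair A, B or C, and 8 to 12 without single control arrays.

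Enzymes that load amino acids onto tRNA rose where called in the cytosolic list and fell where called in the mitochondrial one. Of 19 cytosolic synthetases 9 rose and none fell, with a median of 0.44, while of 15 mitochondrial ones none rose and 4 fell, with a median of -0.67. Aars, for alanine, rose from 2191, 1722 and 2429 to 8841, 5492 and 5518 (1.61 ± 0.23), Iars, for isoleucine, by 1.22 ± 0.20, Tars, for threonine, by 1.07 ± 0.19, Gars, for glycine, by 0.94 ± 0.14, Lars, for leucine, by 0.79 ± 0.14, and Nars, for asparagine, by 0.66 ± 0.13. Not all cytosolic members moved this way: Farsa (-0.96), Vars (-0.96), Kars (-0.80) and Wars (-0.33) were not called and lay below 0, and 3 cytosolic members were lower at an unadjusted p below 0.05. The difference between the lists was not tested. The falls among the mitochondrial enzymes were Nars2 (-1.06 ± 0.33), Cars2 (-0.84 ± 0.19), Iars2 (-0.74 ± 0.20) and Lars2 (-0.63 ± 0.18). Other probe sets of Iars2 and Lars2 gave up to 1.15 and 0.69, and with the mean of all probe sets both turned to 0.20 and 0.067 and were not called. The cytosolic rises numbered 4, 10 and 3 without pair A, B or C, and 6 to 9 without single control arrays, and the mitochondrial falls 0, 7 and 0 without pair A, B or C, and 0 to 3 without single control arrays (2 without minus array A, 1 without minus array B, 0 without minus array C and 1 without plus array B). Mitochondrial aminoacyl-tRNA synthetases had 2 falls with the beta-actin covariate. Without the block the cytosolic rises numbered 2 and the mitochondrial falls 0. The calls of Nars2 and Iars2 were lost with the beta-actin covariate.

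Promoters of these genes were searched for the core of the amino acid response element, TGATGNAA on either strand, in the 250 bases before the start of transcription. It was found in 10 of the 58 members of the 4 lists above that have a RefSeq promoter (17.2%), in 1.96% of the tested genes and in 3.53% of all 27025 promoters. The 7 matches in genes that rose are shown because these windows hold the letters and their genes were called, a choice made after the values were seen. They come from RefSeq on build GRCm38.p6, 80 bases each, 5′ to 3′ on the strand of the gene, with the match in capitals.
Asns, chr6:7693210-7693289, minus strand: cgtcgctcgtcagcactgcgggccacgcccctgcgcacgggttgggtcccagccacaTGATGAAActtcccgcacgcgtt
Chac1, chr2:119351013-119351092, plus strand: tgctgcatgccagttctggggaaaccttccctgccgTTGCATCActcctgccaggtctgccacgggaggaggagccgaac
Nupr1, chr7:126625537-126625616, minus strand: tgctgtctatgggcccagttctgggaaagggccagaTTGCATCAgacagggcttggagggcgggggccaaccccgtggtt
Slc7a11, chr3:50443617-50443696, minus strand: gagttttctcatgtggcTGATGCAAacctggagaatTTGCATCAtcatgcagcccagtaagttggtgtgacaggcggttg
Aars, chr8:111033694-111033773, plus strand: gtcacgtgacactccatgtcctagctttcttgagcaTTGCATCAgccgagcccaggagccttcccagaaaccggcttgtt
Gars, chr6:55037921-55038000, plus strand: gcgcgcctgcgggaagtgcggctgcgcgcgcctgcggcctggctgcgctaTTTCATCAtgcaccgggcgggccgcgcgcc
Tars, chr15:11399659-11399738, minus strand: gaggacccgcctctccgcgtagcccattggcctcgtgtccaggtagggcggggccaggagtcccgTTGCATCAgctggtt
Asns and Slc7a11 carry the element in the reading direction, Slc7a11 also in the other, and the remaining windows carry its reverse complement. A match is a description of the letters and not a bound site.

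**Figure D2:**
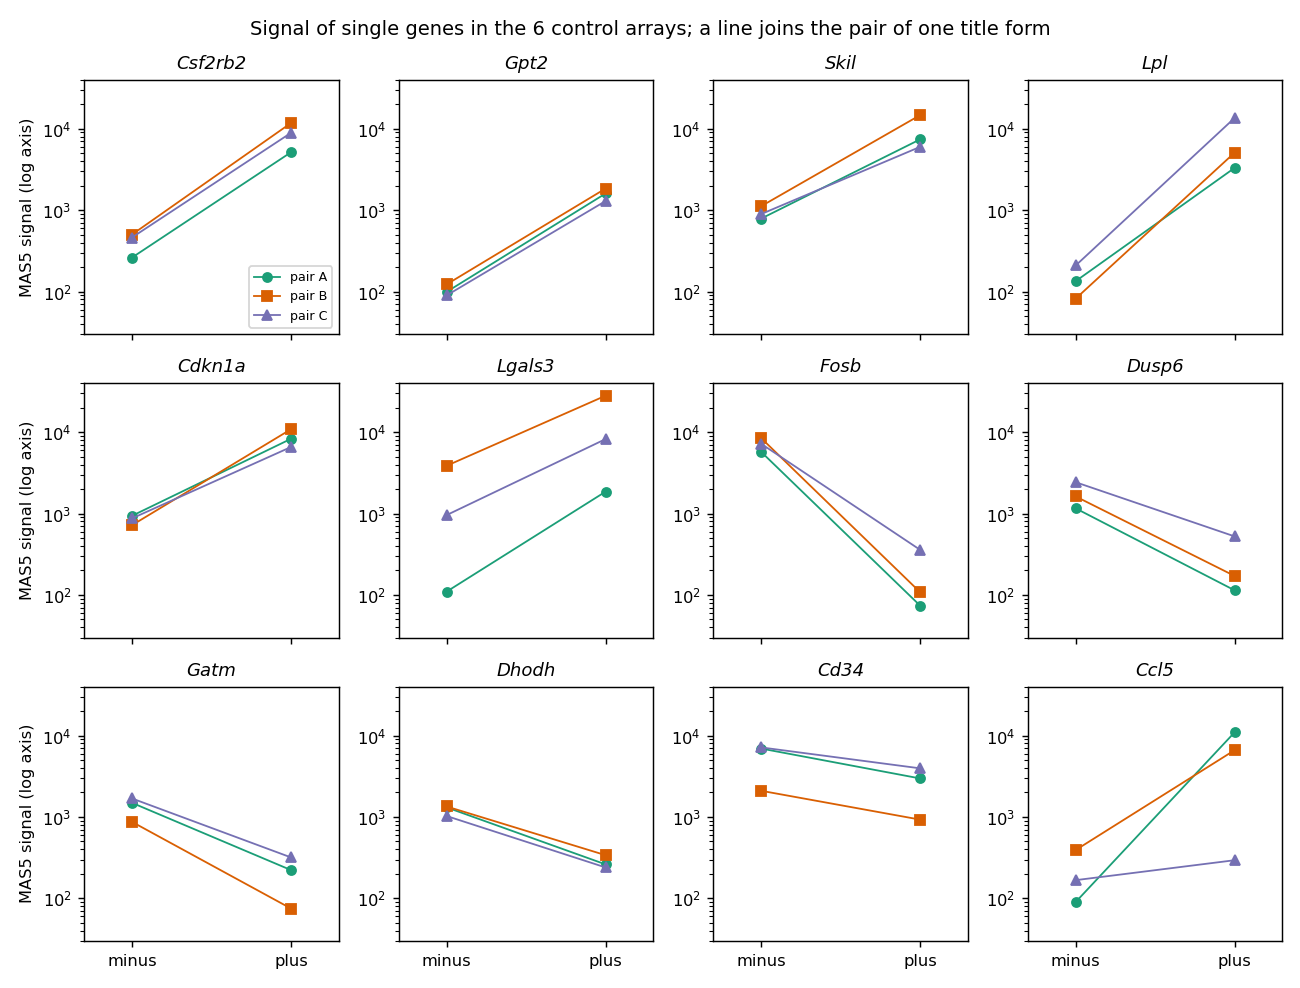
MAS5 signal of 12 genes in the 6 control arrays (vertical log axis), minus on the left and plus on the right of each panel, with 1 line per pair of one title form. Csf2rb2, Gpt2, Skil, Lpl, Cdkn1a and Lgals3 rise and Fosb, Dusp6, Gatm, Dhodh and Cd34 fall in all 3 pairs, and Ccl5 rises far more in pairs A and B than in pair C.

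Genes of the defence against oxidants rose in part. Of 24 NRF2 and glutathione genes, 9 rose, 2 fell and the median was 0.41. Srxn1, which repairs peroxiredoxins, gave 144, 94.7 and 138 in the minus arrays and 1219, 1249 and 1221 in the plus arrays (3.01 ± 0.30), and Sqstm1, the autophagy receptor p62, 968, 517 and 1448 in the minus arrays and 5312, 4191 and 6809 in the plus arrays (2.52 ± 0.25). The glutathione synthesis subunits Gclc (1.59 ± 0.18) and Gclm (1.36 ± 0.22), the exporter Abcc1 (1.18 ± 0.20) and Osgin1 (2.19 ± 0.41) rose, and Gpx1, a glutathione peroxidase (-0.51 ± 0.16), and Ggct (-0.91 ± 0.22) fell. The rises numbered 9, 8 and 7 without pair A, B or C, and 8 to 10 without single control arrays. The letters TGACNNNGC of the antioxidant response element stood before 5 of 20 of these genes (25.0%), against 12.4% of the tested genes and 10.1% of all promoters. The falls among NRF2 and glutathione genes numbered 0, 2 and 0 without pair A, B or C, and 0 to 2 without single control arrays (1 without minus array A, 1 without minus array B, 0 without minus array C, 1 without plus array B and 1 without plus array C), and 1 with the beta-actin covariate. The call of Gpx1 was lost with the beta-actin covariate.

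Protein folding genes did not move as one. Of 27 genes of the endoplasmic reticulum, 6 rose and 1 fell, or 25.9% called against 22.1% of all genes, around a median of -0.10. Among the rises were the transcription factors Xbp1 (1.05 ± 0.17) and Atf6 (1.19 ± 0.20), Edem1, which marks misfolded proteins for removal (1.19 ± 0.26), Syvn1, a ubiquitin ligase (0.64 ± 0.18), and the folding oxidase Ero1a (0.87 ± 0.24), and Sdf2l1, a chaperone partner, fell (-1.65 ± 0.35). These rises numbered 4, 6 and 1 without pair A, B or C, and 3 to 7 without single control arrays (3 without minus array B, 3 without minus array C and 3 without plus array C), and 3 with the beta-actin covariate. With arrays centred on their medians they numbered 3. Of 15 heat shock genes none rose and 3 fell. Hspa1a, an inducible HSP70, was bright in the minus arrays, at 12405, 25348 and 13978, and at 2284, 2633 and 3976 in the plus arrays (-2.49 ± 0.39). Its neighbour Hspa1b (-1.59 ± 0.45) is nearly identical in sequence, so that their probe sets may share signal. Dnajb1, an HSP40, fell by 0.83 ± 0.27 with overlapping arrays. The falls numbered 1, 3 and 2 without pair A, B or C, and 1 to 2 without single control arrays (1 without minus array B and 1 without plus array B). The falls among endoplasmic reticulum folding genes numbered 1, 3 and 0 without pair A, B or C, and 1 to 2 without single control arrays (2 without minus array A), and 0 with the beta-actin covariate. Heat shock proteins had 1 fall with the beta-actin covariate. The calls of Edem1, Ero1a, Sdf2l1, Hspa1b and Dnajb1 were lost with the beta-actin covariate.

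Cholesterol synthesis genes rose broadly. Of 22 tested, 14 rose and none fell, with a median of 1.04 and pair medians of 0.82, 1.17 and 1.04. Msmo1, a sterol oxidase, gave 412, 203 and 251 in the minus arrays and 2896, 1295 and 2096 in the plus arrays (2.71 ± 0.21, limma adjusted p = 2.33e-05). Fdft1, squalene synthase, rose by 2.27 ± 0.17, from 562, 1318 and 592 to 2561, 6741 and 3176. Cyp51 (2.56 ± 0.22), Hmgcs1 (2.08 ± 0.19) and Sc5d (1.94 ± 0.25) rose along the same route, and Insig1, which holds SREBP back when sterol is plentiful, rose by 1.65 ± 0.17. The count was 11, 16 and 8 without pair A, B or C, and 11 to 14 without single control arrays, and 12 with the beta-actin covariate. The sterol response element TCACNCCAC stood before 1 of 18 of these genes (5.56%), against 0.876% of the tested genes and 1.04% of all promoters. Fatty acid synthesis did not share this direction: of 14 genes, 3 rose (Scd2, Fads2 and Acsl4, by 0.48, 0.93 and 0.91) and 2 fell (Acsl5 and Elovl6, -1.34 and -0.62). Their median was -0.03, and 0.03 after quantile normalization. The rises numbered 1, 2 and 0 without pair A, B or C, and 0 to 2 without single control arrays (0 without minus array B, 0 without minus array C, 0 without plus array B and 1 without plus array C). With arrays centred on their medians there was 1. The falls among fatty acid synthesis genes numbered 1, 3 and 1 without pair A, B or C, and 1 whichever single control array was left out (1 without minus array A, 1 without minus array B, 1 without minus array C, 1 without plus array A, 1 without plus array B and 1 without plus array C), and 1 with the beta-actin covariate. With this covariate Scd2, Acsl4 and Elovl6 lost their calls.

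Lpl (chr8:68880555-68906932), the secreted lipase that frees fatty acids from lipoproteins, stood apart among lipid handling genes. It gave 134, 81.9 and 209 in the minus arrays and 3314, 5104 and 13609.8 in the plus arrays (5.22 ± 0.39, limma adjusted p = 2.33e-05), and its 2 probe sets differed by 2.54 and 5.22. Npc1, which moves cholesterol out of lysosomes (1.39 ± 0.23), and Mgll, monoglyceride lipase (1.36 ± 0.34), also rose. Apoe, the carrier protein of lipoproteins, fell from 7047, 4071 and 8394 to 2197, 372 and 2119.5 (-2.33 ± 0.67), a call that was lost whichever single control array was left out. The other 15 of 19 were not called, and the median was 0.22. The share called, 21.1%, was near the 22.1% over all genes. The rises among lipid uptake, storage and efflux genes numbered 2, 5 and 2 without pair A, B or C, and 2 to 3 without single control arrays. The falls among lipid uptake, storage and efflux genes numbered 0, 2 and 0 without pair A, B or C, and 0 whichever single control array was left out (0 without minus array A, 0 without minus array B, 0 without minus array C, 0 without plus array A, 0 without plus array B and 0 without plus array C), and 0 with the beta-actin covariate. The call of Apoe was lost with the beta-actin covariate.

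The nuclear genes for subunits of the respiratory chain and ATP synthase had 39 falls and no rise among 69 tested, a median of -0.63, and pair medians of -0.52, -0.66 and -0.59. Only Uqcr10 lay above 0 (0.21, not called). Uqcr11, of complex III, gave 1709, 4139 and 1629.7 in the minus arrays and 575, 1163 and 544 in the plus arrays, without overlap (-1.62 ± 0.23, limma adjusted p = 0.00095). Cox7c and Cox6b1, of complex IV, fell by 1.85 ± 0.34 and 0.60 ± 0.12. Atp5g1 and Atp5k, of ATP synthase, fell by 1.22 ± 0.25 and 0.86 ± 0.16, and Ndufs7, of complex I, by 0.80 ± 0.17. Of the falls, 31 were under 2-fold. All falls of the list numbered 11, 47 and 2 without pair A, B or C, and 12 to 25 without single control arrays (15 without minus array A, 17 without minus array B, 12 without minus array C, 25 without plus array A, 17 without plus array B and 21 without plus array C). The falls numbered 19 with the beta-actin covariate and 1 without the block. Cox6b1 lost its call with the covariate.

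Citric acid cycle genes had 5 falls and no rise among 18, with a median of -0.46. Idh2, the mitochondrial NADP-dependent isocitrate dehydrogenase, gave 5116, 1567 and 7800.2 in the minus arrays and 1940.1, 429.8 and 2532 in the plus arrays. Pair B was dim in both groups, so that the groups overlapped while each pair fell (-1.38, -1.79 and -1.61). Suclg2 (-1.27 ± 0.23), Idh3a (-1.01 ± 0.22), pyruvate carboxylase Pcx (-0.80 ± 0.23) and Idh3b (-0.56 ± 0.18) fell too. The count was 3, 7 and 1 without pair A, B or C, and 3 to 6 without single control arrays (3 without minus array A, 3 without minus array C, 3 without plus array B and 3 without plus array C). The call of Pcx was lost with the beta-actin covariate.

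In glycolysis and the pentose phosphate route, 10 of 27 genes fell and 1 rose, with a median of -0.32. Slc16a1, the lactate carrier MCT1, gave 2893, 2084 and 3019 in the minus arrays and 751, 521 and 921 in the plus arrays (-1.84 ± 0.17, limma adjusted p = 6.51e-05). Tpi1, triose phosphate isomerase, fell from 5840.2, 5512 and 7855 to 2759, 1642 and 2368, and Hk2, a hexokinase, from 1518, 1606 and 1832 to 471, 777 and 706. The phosphofructokinase genes went separate ways: Pfkl (-1.39 ± 0.28) and Pfkm (-1.29 ± 0.24) fell, and Pfkp rose (0.86 ± 0.20). Pdk1, a kinase of pyruvate dehydrogenase, fell by 1.29 ± 0.25. Aldoa (0.47), Gapdh (-0.32), Pgk1 (0.13) and Pkm (0.07) were not called. The falls numbered 5, 11 and 6 without pair A, B or C, and 8 to 10 without single control arrays, and 6 with the beta-actin covariate. The rises among glycolysis and pentose phosphate genes numbered 0, 1 and 0 without pair A, B or C, and 0 to 1 without single control arrays (0 without minus array A and 0 without plus array C), and 0 with the beta-actin covariate. The calls of Pfkl, Pfkm and Pfkp were lost with the beta-actin covariate.

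The binding motif of NRF1, a factor of many respiratory chain genes, stood within 250 bases before 9 of the 58 respiratory subunit genes with a RefSeq promoter (15.5%), 9.09% of the tested genes and 3.86% of all promoters. The following 3 windows were picked, after the values were seen, from the matches in genes that fell, 1 of complex II and 2 of ATP synthase, with the motif in capitals as above.
Atp5k, chr5:108434405-108434484, minus strand: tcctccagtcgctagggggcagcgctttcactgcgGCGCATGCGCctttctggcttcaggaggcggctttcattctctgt
Atp5g2, chr15:102671048-102671127, minus strand: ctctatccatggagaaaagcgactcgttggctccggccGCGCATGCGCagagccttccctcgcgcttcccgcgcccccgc
Sdha, chr13:74350241-74350320, minus strand: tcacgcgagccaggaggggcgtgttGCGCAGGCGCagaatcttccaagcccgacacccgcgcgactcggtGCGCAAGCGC
Sdha has a match more outside this window. The genes differed by -0.86, -1.14 and -0.71 between plus and minus.

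**Figure D3:**
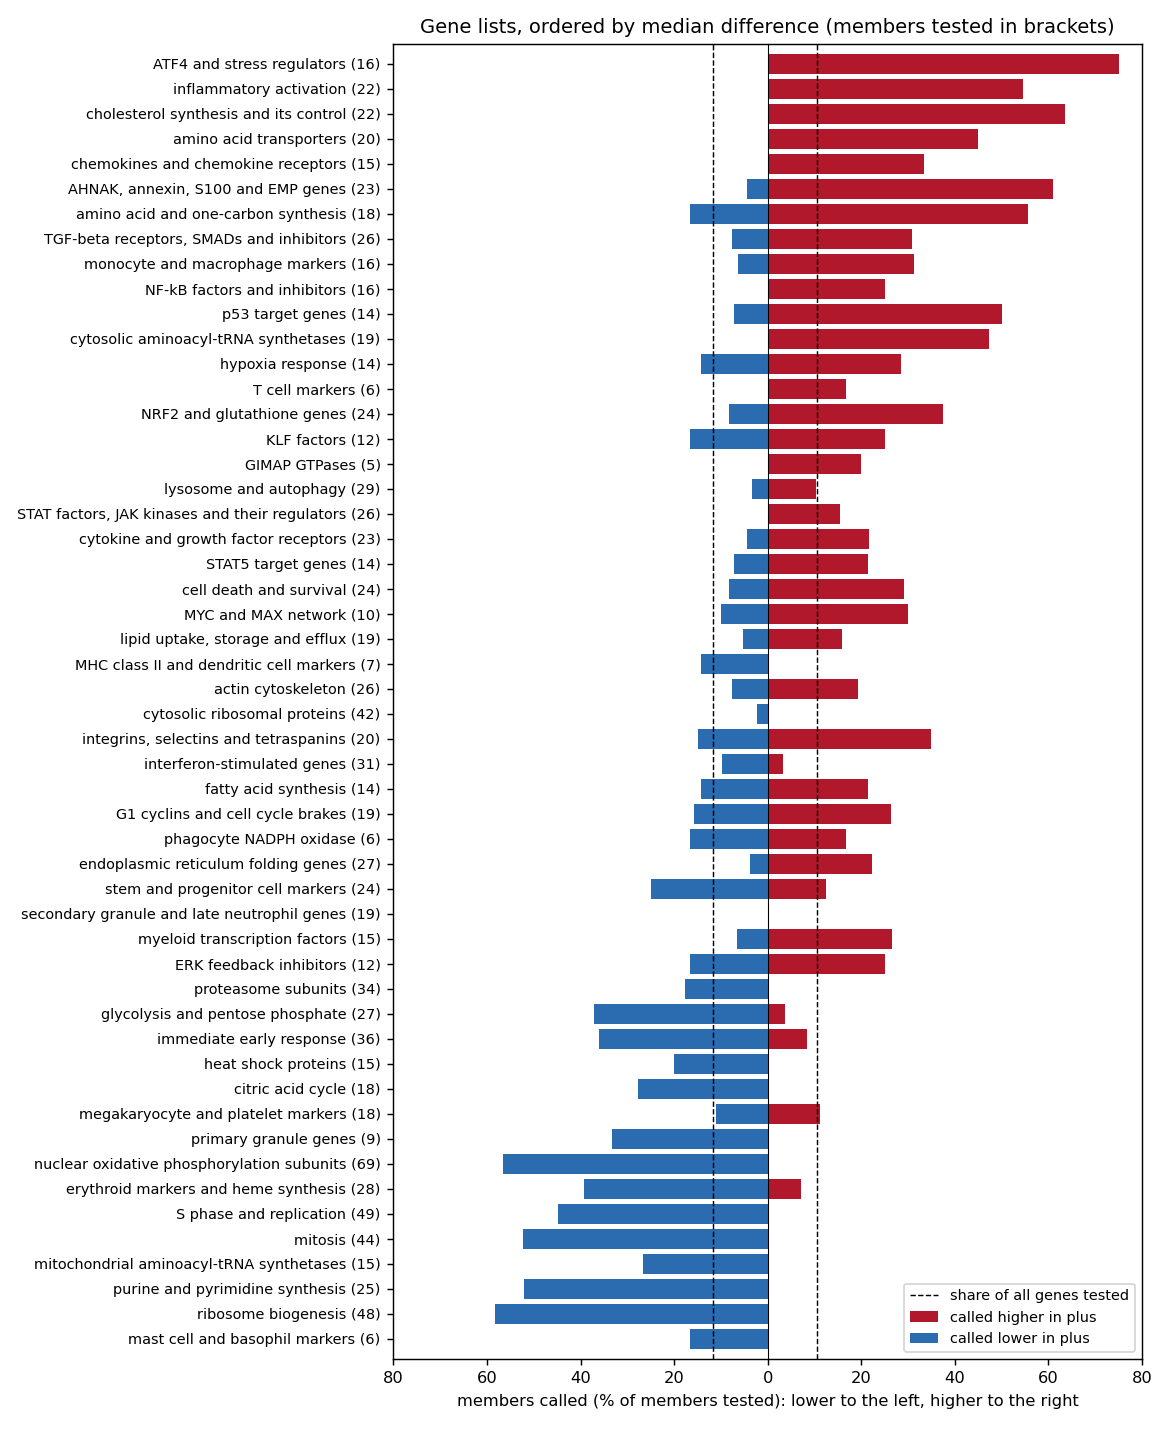
Share of the tested members of each gene list with at least 5 tested that was called lower (blue, to the left) or higher (red, to the right) in the plus arrays, in percent, with lists ordered by their median difference and the number tested in brackets. The dashed lines mark the shares over all genes tested, 11.6% lower and 10.6% higher; ATF4 and stress regulators stand at the top and ribosome biogenesis and nucleotide synthesis near the bottom.

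Genes for making ribosomes fell where they were called. Of 48 ribosome biogenesis genes 28 fell and none rose, with a median of -0.79. Polr1b, the second largest subunit of RNA polymerase I, gave 1777, 1273 and 1456 in the minus arrays and 442, 349 and 442 in the plus arrays (-1.79 ± 0.19, limma adjusted p = 0.000172). Grwd1 (-1.59 ± 0.20), Nop16 (-1.59 ± 0.19) and Wdr12 (-1.49 ± 0.20), assembly factors of the large subunit, and the H/ACA particle proteins Nhp2 (-1.24 ± 0.20) and Nop10 (-1.17 ± 0.19) fell. The falls numbered 19, 31 and 9 without pair A, B or C, and 18 to 27 without single control arrays (18 without minus array B), and 19 with the beta-actin covariate. Of 42 cytosolic ribosomal protein genes, 1 was called: Rpl12 fell, from 2990.0, 2216 and 1616 to 648, 713 and 726 (-1.62 ± 0.26). The median of these genes was 0.10 as deposited, -0.10 with arrays centred on their medians and -0.01 after quantile normalization, so that no direction is given for them. Many ribosomal protein genes have near-identical processed copies, and their probe sets may share signal. The falls among cytosolic ribosomal proteins numbered 1, 4 and 1 without pair A, B or C, and 1 to 2 without single control arrays (2 without minus array B and 2 without plus array C), and 2 with the beta-actin covariate.

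Nucleotide synthesis genes fell in 13 of 25 genes with no rise and a median of -0.69. Mthfd1, which supplies cytosolic one-carbon units, was lower by 2.35 ± 0.35, with pair differences of -1.74, -3.80 and -1.51. Cad, of the first steps of pyrimidine synthesis, gave 2359, 2199 and 1713 in the minus arrays and 824, 294 and 386 in the plus arrays (-2.11 ± 0.26), and Dhodh, of the fourth step, 1312, 1345 and 1027 in the minus arrays and 261, 339 and 239.7 in the plus arrays (-2.02 ± 0.20, limma adjusted p = 0.000102). For purines, Prps2 (-1.75 ± 0.18), Gart (-1.63 ± 0.18) and Ppat, the committed step (-1.59 ± 0.22), fell. The count was 9, 17 and 8 without pair A, B or C, and 10 to 14 without single control arrays. Cytosolic Mthfd1 and Shmt1 thus fell in the same arrays in which mitochondrial Mthfd2 rose. The E-box CACGTG, which MYC and other factors can bind, stood before 6 of 67 genes of the ribosome biogenesis and nucleotide lists (8.96%), against 8.70% of the tested genes and 6.05% of all promoters. Constitutive proteasome subunits fell in 6 of 34 and rose in none, or 17.6% called against 22.1% of all genes, with a median of -0.31. The called members, Psma1, Psma7, Psmb2, Psmb7, Psmd2 and Psmd7, differed by -0.79 to -0.56, and their number was 0, 6 and 0 without pair A, B or C, and 0 to 2 without single control arrays (0 without minus array A, 2 without minus array B, 0 without minus array C, 2 without plus array A, 0 without plus array B and 1 without plus array C). With the mean of its probe sets Psma1 was at 0.10 and not called. Proteasome subunits had 3 falls with the beta-actin covariate. Of the members named above only Psmb7 was among them, as Psma1, Psma7, Psmb2, Psmd2 and Psmd7 lost their calls.

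Genes of DNA replication and mitosis fell where they were called. Among 49 S phase and replication genes 22 fell, none rose and the median was -0.67, with -0.56, -1.08 and -0.46 in pairs A, B and C. Ung, which removes uracil from DNA, gave 4544, 5413 and 4462 in the minus arrays and 619.7, 268 and 1298 in the plus arrays (-2.92 ± 0.34). Pold2, of DNA polymerase delta, fell by 2.03 ± 0.28, Tk1, thymidine kinase, by 1.90 ± 0.23, Dut, which destroys dUTP, by 1.51 ± 0.22, the helicase subunit Mcm2 by 1.34 ± 0.23, and Lig1, a DNA ligase, by 1.13 ± 0.18. The count was 11, 25 and 9 without pair A, B or C, and 10 to 22 without single control arrays (14 without minus array A, 10 without minus array B and 13 without plus array B), and 15 with the beta-actin covariate. It was 4 without the block. The E2F letters TTTCCCGC and TTTGGCGC each stood before 3 of 41 of these genes (7.32%), against 1.91% and 0.968% of the tested genes and 0.929% and 0.437% of all promoters.

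Among 44 mitosis genes 23 fell, none rose and the median was -0.67. Cdk1, the kinase that starts mitosis, gave 3241, 2455 and 3672 in the minus arrays and 1696, 935 and 1959 in the plus arrays (-1.06 ± 0.21), and its cyclin Ccnb2 2362, 3538 and 2284 in the minus arrays and 1369, 568 and 803 in the plus arrays (-1.61 ± 0.33). Nuf2, of the kinetochore (-1.37 ± 0.24), the phosphatase Cdc25c (-1.33 ± 0.27) and the kinases Plk1 (-1.21 ± 0.20) and Aurkb (-1.17 ± 0.18) fell. The count was 9, 29 and 2 without pair A, B or C, and 11 to 21 without single control arrays (12 without minus array B, 11 without minus array C and 14 without plus array B), and 17 with the beta-actin covariate. It was 2 without the block. Cell cycle genes often carry a homology region with the letters TTTGAA. On either strand these stood before 13 of 36 mitosis genes (36.1%), 10.3% of the tested genes and 16.3% of all promoters. The following 4 windows of genes that fell were picked from the matches, after the values were seen.
Cdk1, chr10:69352913-69352992, minus strand: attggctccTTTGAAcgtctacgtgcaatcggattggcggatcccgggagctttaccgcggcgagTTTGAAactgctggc
Ccnb2, chr9:70421679-70421758, minus strand: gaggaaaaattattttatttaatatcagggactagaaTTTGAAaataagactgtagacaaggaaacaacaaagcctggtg
Ube2c, chr2:164769849-164769928, plus strand: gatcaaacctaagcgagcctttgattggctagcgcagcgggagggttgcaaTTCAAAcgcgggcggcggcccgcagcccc
Top2a, chr11:99024190-99024269, minus strand: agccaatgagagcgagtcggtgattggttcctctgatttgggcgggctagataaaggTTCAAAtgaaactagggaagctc
The promoter of Top2a holds a match more outside its window. So short a run of letters is common, and the shares are a description.

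Brakes of the cell cycle and p53 target genes rose in part. Cdkn1a (chr17:29090979-29100722), the inhibitor p21, gave 937, 719 and 871 in the minus arrays and 8281, 10851 and 6566 in the plus arrays, without overlap (3.28 ± 0.33, limma adjusted p = 9.98e-05), and its 2 probe sets gave 3.28 and 3.36. Cdkn1c, p57, rose by 1.48 ± 0.35, Ccng2 by 1.35 ± 0.23 and Btg1 by 1.07 ± 0.16. Cdkn2c, p18, fell by 1.01 ± 0.21 and Cdk4 by 0.94 ± 0.28. In the list of 19 G1 cyclins and brakes, 5 rose, 3 fell and the median was -0.06. Of 14 p53 targets 7 rose and 1 fell, with a median of 0.46, and the rises numbered 4, 6 and 5 without pair A, B or C, and 6 to 7 without single control arrays. Trp53inp1, which p53 induces, gave 2031, 1889 and 1586 in the minus arrays and 6199, 12220.0 and 6267 in the plus arrays (2.08 ± 0.19), and Mdm2, which degrades p53, rose by 0.99 ± 0.20. Aen, a nuclease, fell (-0.87 ± 0.21). The rises among G1 cyclins and cell cycle brakes numbered 3, 6 and 4 without pair A, B or C, and 3 to 4 without single control arrays (3 without minus array C), and 3 with the beta-actin covariate. The falls among G1 cyclins and cell cycle brakes numbered 1, 3 and 2 without pair A, B or C, and 2 to 3 without single control arrays, and 1 with the beta-actin covariate. The falls among p53 target genes numbered 0, 1 and 0 without pair A, B or C, and 0 to 1 without single control arrays (0 without minus array A, 0 without minus array B, 0 without plus array A and 0 without plus array C), and 0 with the beta-actin covariate. The p53 target genes had 4 rises with the beta-actin covariate. The calls of Cdkn1c, Cdk4 and Aen were lost with the beta-actin covariate.

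Of 24 genes of cell death and survival, 7 rose and 2 fell. The rises included the BH3-only death genes Bmf (2.41 ± 0.23), Bcl2l11, or BIM (2.24 ± 0.40), Pmaip1, or NOXA (2.08 ± 0.26), and Bbc3, or PUMA (2.0 ± 0.42). The survival gene Bcl2 fell from 3227, 2667 and 2954 to 1283, 547 and 939 (-1.72 ± 0.29), and the inhibitor Birc3 rose (1.28 ± 0.25). The rises numbered 3, 8 and 5 without pair A, B or C, and 5 to 8 without single control arrays. In the MYC and MAX network, Myc fell from 4018, 3663 and 3286 to 1917, 754 and 1635 (-1.43 ± 0.25, limma adjusted p = 0.00272), while Mycn (1.10 ± 0.25) and the MYC antagonists Mxd1 (1.37 ± 0.37) and Mxd4 (0.95 ± 0.20) rose. Max (-0.25) and the other members tested were not called. The rises numbered 1, 4 and 0 without pair A, B or C, and 1 to 3 without single control arrays (1 without minus array C). The falls among cell death and survival genes numbered 1, 2 and 1 without pair A, B or C, and 1 to 2 without single control arrays (1 without minus array A, 1 without minus array B, 1 without minus array C, 1 without plus array A and 1 without plus array B), and 1 with the beta-actin covariate. Cell death and survival genes had 4 rises with the beta-actin covariate. The calls of Bbc3, Birc3 and Mxd4 were lost with the beta-actin covariate.

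**Figure D4:**
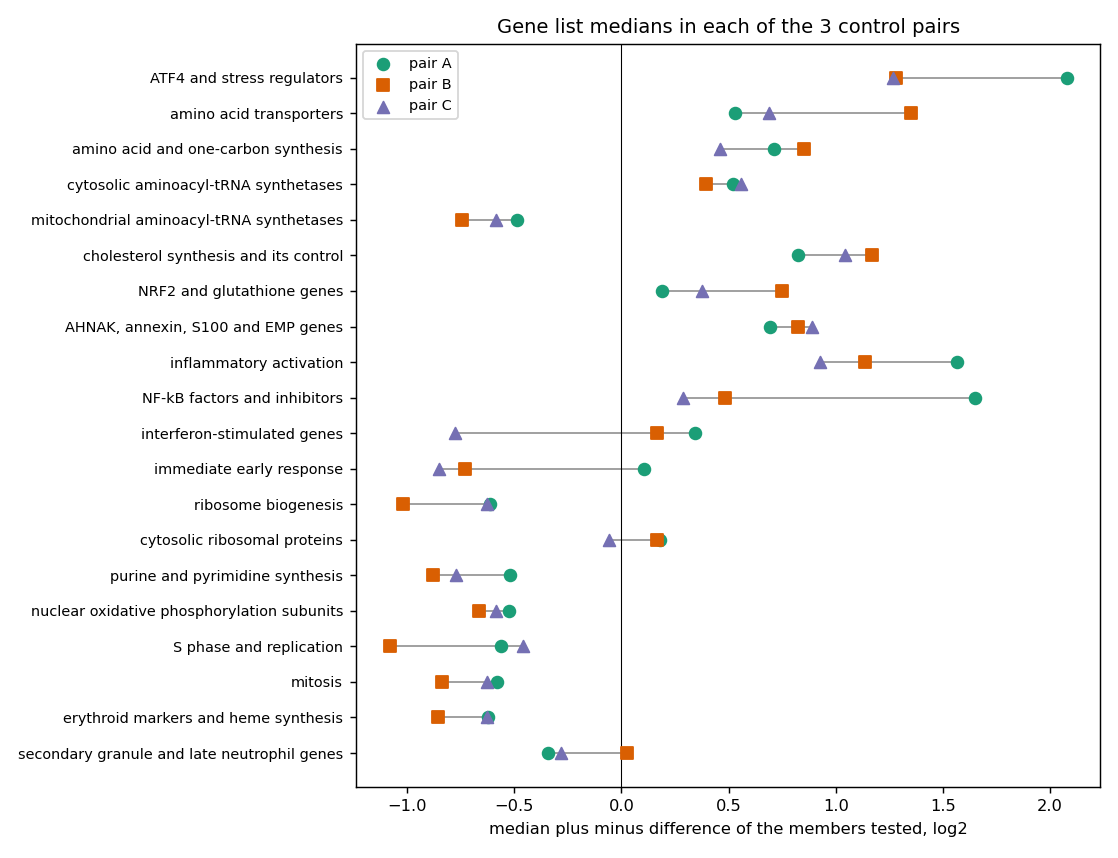
Median plus minus difference of the tested members of 20 gene lists (horizontal axis, log2) in pair A (circles), pair B (squares) and pair C (triangles). The medians of most lists lie on one side of 0 in all 3 pairs; those of the interferon-stimulated, immediate early, cytosolic ribosomal protein and secondary granule lists lie on both sides.

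Immediate early genes held the deepest falls, but not all of them fell. Fosb (chr7:19302696-19310118), a partner of JUN in the factor AP-1, gave 5731, 8457 and 7205 in the minus arrays and 73.9, 108 and 358 in the plus arrays (-5.30 ± 0.39, limma adjusted p = 2.33e-05). Jun gave 11363, 8769 and 10855 in the minus arrays and 1121, 266 and 969 in the plus arrays (-3.88 ± 0.66), Fos 11854, 54828 and 15078 in the minus arrays and 1116, 1046 and 3399.8 in the plus arrays (-3.73 ± 0.56) and Egr1 7896, 25040.0 and 10669 in the minus arrays and 1214, 1729 and 1317 in the plus arrays (-3.16 ± 0.46). In each case the lowest minus array lay above the highest plus array, and pair B fell furthest, with -3.37, -5.67 and -2.14 for Fos. Klf2 (-2.55 ± 0.60) and the kinase gene Sik1 (-2.88 ± 0.36) also fell. Nr4a3, a nuclear receptor, rose from 17.0, 36.7 and 11.6 to 210.0, 157 and 507 (2.47 ± 0.39, a size that moved to 3.65 with 1 and 1.59 with 100 added before the logarithm), and Fosl2 (1.40 ± 0.30) and Ptgs2, cyclooxygenase 2 (1.19 ± 0.34), rose as well. The second probe set of Fosl2 was at -0.26, and the 3 probe sets of Nr4a3 ranged from -0.22 to 2.47. Of 36 tested, 13 fell, 3 rose and 20 were not called, among them Egr2 (-0.05), Nr4a1 (-0.25), Atf3 (1.93) and Ier3 (0.17). The list's median was -0.33, and by pair 0.11, -0.73 and -0.85. The falls numbered 11, 15 and 8 without pair A, B or C, and 9 to 12 without single control arrays, and 8 with the beta-actin covariate. The CArG box and the cyclic AMP response element TGACGTCA each stood before 2 of 29 of these genes (6.90%), against 1.14% and 2.74% of the tested genes and 1.40% and 1.62% of all promoters. The rises among immediate early response genes numbered 2, 9 and 1 without pair A, B or C, and 2 to 3 without single control arrays. The calls of Jun, Klf2 and Ptgs2 were lost with the beta-actin covariate.

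The feedback inhibitors of the ERK kinases split. The phosphatases Dusp6 and Dusp1 fell, Dusp6 from 1158, 1621 and 2426 to 114, 171 and 523 (-2.73 ± 0.31) and Dusp1 by 3.37 ± 0.40. Dusp16, which acts on JNK and p38 (1.46 ± 0.20), Spred1 (1.48 ± 0.24) and Spry2 (0.96 ± 0.28) rose, and the other 7 of 12 were not called. The 8 probe sets of Spred1 ranged from -0.90 to 1.48. Among 12 KLF factors, Klf3 (1.73 ± 0.23), Klf9 (1.33 ± 0.22) and Klf7 (1.18 ± 0.20) rose, and Klf1 (-2.02 ± 0.51) and Klf2 fell. The probe sets of Klf9 ranged from -0.53 to 1.62 and those of Klf3 from -0.03 to 1.73. The falls among KLF factors numbered 2, 3 and 0 without pair A, B or C, and 0 to 2 without single control arrays (0 without minus array B, 1 without minus array C, 0 without plus array B and 1 without plus array C), and 0 with the beta-actin covariate. The calls of Spry2 and Klf1 were lost with the beta-actin covariate.

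Inflammatory activation genes rose. Of 22 tested 12 rose and none fell, with a median of 1.15 and pair medians of 1.57, 1.14 and 0.93. Icam1, an adhesion receptor, gave 664, 446 and 588 in the minus arrays and 2789, 2262 and 1548 in the plus arrays (1.88 ± 0.23), and Cd83, of activated antigen-presenting cells, 9.36, 10.1 and 48.4 in the minus arrays and 431, 263 and 492 in the plus arrays (3.0 ± 0.36, or 4.42 with 1 and 2.0 with 100 as the added constant). The C-type lectins Clec4e (2.17 ± 0.38), Clec4d (1.30 ± 0.26) and Clec4n (3.11 ± 0.57), and Acod1, which makes itaconate (4.15 ± 0.88), rose. So did Cd14, of the endotoxin receptor (2.03 ± 0.39). The count was 8, 13 and 6 without pair A, B or C, and 7 to 10 without single control arrays (7 without plus array B), and 8 with the beta-actin covariate. Of 16 NF-kB factors and inhibitors, 25.0% were called, against 22.1% of all genes. The 4 called rose: Relb (3.30 ± 0.61), the adaptor Traf1 (3.0 ± 0.48), Bcl3 (1.83 ± 0.43) and Tnip1 (1.01 ± 0.30). Pair A led in each, with Relb at 62.4, 38.3 and 59.5 in the minus and 2565, 483 and 402 in the plus arrays, and the list's pair medians were 1.65, 0.48 and 0.28. This count was 2, 8 and 3 without pair A, B or C, and 2 to 4 without single control arrays (2 without minus array A, 2 without plus array A and 2 without plus array B), and 1 with the beta-actin covariate. The calls of Acod1, Relb, Bcl3 and Tnip1 were lost with the beta-actin covariate.

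Chemokine genes were uneven between pairs. Ccl5 gave 90.1, 392 and 167 in the minus arrays and 10996, 6622 and 294 in the plus arrays, so that the plus array of pair C lay below the minus array of pair B, and the mean rise of 3.73 ± 0.92 (limma adjusted p = 0.0141) stood for 6.50, 3.97 and 0.71 in the pairs. Ccl3 (1.05 ± 0.30), Ccl9 (0.58 ± 0.19), Ccr1 (1.10 ± 0.36) and Cxcr4 (0.89 ± 0.28) made up the other rises among 15 tested, which numbered 2, 4 and 1 without pair A, B or C, and 0 to 4 without single control arrays (0 without minus array A, 0 without minus array B, 2 without plus array A, 1 without plus array B and 2 without plus array C). Interferon-stimulated genes had 1 rise and 3 falls among 31, or 12.9% called against 22.1% of all genes. Their median was 0.03, or -0.17 with arrays centred on their medians. Rsad2, viperin, rose from 1069, 1385 and 1659.7 to 15194, 10872 and 3682 (2.62 ± 0.59), most in pair A. The falls were the immunoproteasome subunits Psmb8 (-1.42 ± 0.18), Psmb9 (-1.49 ± 0.19) and Psmb10 (-1.46 ± 0.20), each lower in all 3 pairs. Among 14 hypoxia response genes, Vegfa (1.24 ± 0.26), Kdm3a (0.81 ± 0.18), Ddit4 (2.09 ± 0.48) and Ero1a rose, and Pdk1 and Car9 (-0.92 ± 0.29) fell. Chemokines and chemokine receptors had 2 rises with the beta-actin covariate, 1 with arrays centred on their medians and 0 without the block. The rises among interferon-stimulated genes numbered 1, 1 and 2 without pair A, B or C, and 0 to 2 without single control arrays (2 without minus array C and 0 without plus array B), and 0 with the beta-actin covariate. The rises among hypoxia response genes numbered 2, 4 and 0 without pair A, B or C, and 2 to 5 without single control arrays (2 without minus array C). The falls among hypoxia response genes numbered 1, 2 and 1 without pair A, B or C, and 1 to 2 without single control arrays (1 without minus array A, 1 without minus array C, 1 without plus array A, 1 without plus array B and 1 without plus array C). The calls of Ccl5, Ccl3, Ccl9, Cxcr4 and Rsad2 were lost with the beta-actin covariate.

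TGF-beta pathway genes were called in both directions. Skil (chr3:31095058-31122923), the repressor SnoN, gave 787, 1118 and 894 in the minus arrays and 7409, 14707 and 5993 in the plus arrays (3.19 ± 0.20, limma adjusted p = 1.16e-05). Pmepa1, which traps SMAD proteins, rose from 47.4, 45.9 and 25.8 to 906, 2276 and 1626 (4.43 ± 0.39). Ski (1.04 ± 0.22) and the receptors Tgfbr1 (1.53 ± 0.34) and Bmpr2 (1.0 ± 0.16) rose, while the co-receptors Tgfbr3 (-3.35 ± 0.60) and Eng (-1.17 ± 0.31) fell, Tgfbr3 from 5232, 4364 and 3362 to 549.6, 198 and 521. Of 26 genes 8 rose and 2 fell, around a median of 0.57, and the rises numbered 4, 11 and 2 without pair A, B or C, and 6 to 7 without single control arrays. The falls among TGF-beta receptors, SMADs and inhibitors numbered 2, 2 and 1 without pair A, B or C, and 1 to 3 without single control arrays (1 without minus array A, 1 without minus array B and 1 without plus array B), and 0 with the beta-actin covariate. The calls of Tgfbr1, Tgfbr3 and Eng were lost with the beta-actin covariate.

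A mixed list of genes for calcium-binding, membrane and scaffold proteins held strong rises. The list was drawn up with earlier results of these data known and holds genes outside its named families, such as Crip1. Its share of rises is therefore a description only. Of 23 AHNAK, annexin, S100 and EMP genes, 14 rose, 1 fell and the median was 0.79, with 0.69, 0.82 and 0.89 by pair. Emp1, an epithelial membrane protein, gave 111, 30.2 and 122 in the minus arrays and 1912, 5508 and 8882 in the plus arrays (5.37 ± 0.50). Ahnak, a giant scaffold protein, gave 175, 247 and 867 in the minus arrays and 4459, 8222 and 10893 in the plus arrays (4.31 ± 0.28, limma adjusted p = 1.16e-05), but its 4 probe sets ranged from 0.03 to 4.31. Lgals3, galectin 3, had signals that differed more between pairs than between signs, 109.6, 3857 and 956 in the minus arrays and 1858, 28022 and 8217 in the plus arrays, and yet a like rise in each pair (3.74, 2.85 and 3.06). S100a4 (3.52 ± 0.34), Ahnak2 (3.88 ± 0.37) and Lmna, which encodes the lamins A and C (3.17 ± 0.33), rose. Crip1, a LIM protein, was the member that fell (-0.84 ± 0.18). The rises numbered 11, 12 and 8 without pair A, B or C, and 10 to 13 without single control arrays. The falls among AHNAK, annexin, S100 and EMP genes numbered 0, 3 and 0 without pair A, B or C, and 1 to 3 without single control arrays (2 without minus array B and 3 without plus array B), and 0 with the beta-actin covariate. The call of Crip1 was lost with the beta-actin covariate.

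Adhesion and cytoskeleton genes moved in both directions, and their list medians turned sign when arrays were centred on their medians. Of 20 integrins, selectins and tetraspanins 7 rose and 3 fell (median 0.09, or -0.11 when centred). Cd151 (1.43 ± 0.24), Cd53 (1.18 ± 0.22) and Cd44, the hyaluronan receptor (0.89 ± 0.20), rose, and Itga4, which anchors progenitors in the marrow (-1.44 ± 0.28), Icam2 (-1.34 ± 0.20) and Itgal (-0.77 ± 0.21) fell. Of 26 actin genes 5 rose and 2 fell, or 26.9% called against 22.1% of all genes (median 0.15, or -0.05 when centred). Enah, an actin filament elongator, rose from 79.2, 2.33 and 73.7 to 485, 788 and 1769.9 (3.63 ± 0.40), while its 6 probe sets ranged from 0.11 to 3.63. Its relative Evl (-1.13 ± 0.34, or -1.57 with 1 and -0.75 with 100 as the added constant) and profilin, Pfn1 (-1.18 ± 0.26), fell, and Tpm1 (1.49 ± 0.32), Myh9 (1.16 ± 0.19), Marcks (1.15 ± 0.31) and Vcl (0.78 ± 0.13) rose. Gimap8 rose (1.5 ± 0.32) among 5 GIMAP GTPases, small GTPases of lymphoid and progenitor cells. Among 29 lysosome and autophagy genes 13.8% were called, fewer than the 22.1% of all genes. Map1lc3a (0.93 ± 0.22), Ctsl (0.87 ± 0.24) and Atp6v1b2 (0.77 ± 0.20) rose and Gaa fell (-0.77 ± 0.22). This rise count was 1, 7 and 0 without pair A, B or C, and 1 to 2 without single control arrays (1 without minus array B, 1 without minus array C, 1 without plus array A and 1 without plus array C). It was 1 with arrays centred on their medians. The rises among integrins, selectins and tetraspanins numbered 4, 6 and 3 without pair A, B or C, and 3 to 7 without single control arrays (3 without minus array B), and 4 with the beta-actin covariate. With arrays centred on their medians they numbered 3. The falls among integrins, selectins and tetraspanins numbered 2, 4 and 0 without pair A, B or C, and 2 to 3 without single control arrays. The rises among actin cytoskeleton genes numbered 4, 5 and 3 without pair A, B or C, and 4 to 5 without single control arrays. The falls among actin cytoskeleton genes numbered 0, 1 and 0 without pair A, B or C, and 0 to 2 without single control arrays (1 without minus array A, 0 without minus array B, 1 without minus array C and 1 without plus array B), and 0 with the beta-actin covariate. The rises among GIMAP GTPases numbered 1, 1 and 0 without pair A, B or C, and 1 whichever single control array was left out, and 0 with the beta-actin covariate. The falls among lysosome and autophagy genes numbered 1, 1 and 0 without pair A, B or C, and 0 to 2 without single control arrays (0 without minus array B, 0 without minus array C, 2 without plus array A, 0 without plus array B and 0 without plus array C), and 2 with the beta-actin covariate. The calls of Cd53, Cd44, Itgal, Evl, Pfn1, Marcks, Gimap8 and Ctsl were lost with the beta-actin covariate.

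Markers of stem and progenitor cells were mixed. In bulk samples fewer cells of a type and less RNA per cell cannot be told apart. Of 24 tested, 6 fell, 3 rose and the median was -0.16. Cd34, a sialomucin of progenitors, gave 6922, 2096 and 7148 in the minus arrays and 2969.8, 927 and 3953 in the plus arrays (-1.07 ± 0.22). It fell in each pair (-1.21, -1.15 and -0.85), but pair B was so much dimmer that the groups overlapped. Angpt1, angiopoietin, fell from 4618, 3964 and 4596 to 1321, 723 and 1243 (-2.02 ± 0.24), and Slamf1 (-2.09 ± 0.37), Cd48 (-1.43 ± 0.32) and Egfl7 (-1.24 ± 0.22) fell. Hlf, a factor of stem cells (1.47 ± 0.40), Mycn and Esam (0.99 ± 0.25) rose. Kit (0.29), Meis1 (-0.30), Hoxa9 (-0.16) and Myb (-0.24) were not called. The falls numbered 4, 5 and 3 without pair A, B or C, and 4 to 6 without single control arrays. The rises among stem and progenitor cell markers numbered 2, 3 and 0 without pair A, B or C, and 0 to 4 without single control arrays (1 without minus array B, 0 without minus array C and 1 without plus array B), and 5 with the beta-actin covariate. The call of Cd34 was lost with the beta-actin covariate.

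Some primary granule genes fell, and no secondary granule gene was called. Primary granule genes had 3 falls among 9 (33.3%, against 11.6% of all genes), with a median of -0.61. These were the serine proteases Ctsg (-0.97 ± 0.28) and Prtn3 (-0.61 ± 0.19), and Nkg7 (-2.02 ± 0.24), a gene of cytotoxic cell granules that the list also holds. Of 23 alternatives, Ctsg lost its call in 6, Prtn3 in 14 and Nkg7 in 0. Mpo, myeloperoxidase, was bright in all arrays, at 17163, 48661 and 18346 in the minus and 19103, 21820.3 and 15537 in the plus arrays, and not called (-0.41). None of 19 secondary granule and late neutrophil genes was called by limma, 2 were lower at an unadjusted p below 0.05, and their median was -0.21. Their levels followed the pair: Camp, a cathelicidin, gave 838, 14023 and 4499 and 415, 12587 and 1931, and S100a8 4935, 52539 and 9145 and 1864, 55421 and 8706, highest in both arrays of pair B. The summed signal of these markers was 20575.0 to 165928 in the minus and 12440.2 to 179837 in the plus arrays. Among 15 myeloid transcription factors Batf3 (2.35 ± 0.38), Cebpb (1.21 ± 0.35), Id2 (0.92 ± 0.25) and Zeb2 (0.81 ± 0.25) rose and Gfi1 fell (-1.17 ± 0.34). The rises numbered 1, 5 and 1 without pair A, B or C, and 1 to 3 without single control arrays (1 without minus array A, 2 without minus array C, 1 without plus array B and 1 without plus array C). Ncf1, of the NADPH oxidase, rose (1.11 ± 0.21) and its partner Rac2 fell (-1.07 ± 0.26). The falls among primary granule genes numbered 1, 4 and 1 without pair A, B or C, and 1 to 3 without single control arrays (1 without minus array B, 1 without minus array C and 1 without plus array B). The falls among myeloid transcription factors numbered 0, 1 and 0 without pair A, B or C, and 0 whichever single control array was left out (0 without minus array A, 0 without minus array B, 0 without minus array C, 0 without plus array A, 0 without plus array B and 0 without plus array C). Myeloid transcription factors had 2 rises with the beta-actin covariate. The calls of Prtn3, Cebpb, Id2, Zeb2, Gfi1, Ncf1 and Rac2 were lost with the beta-actin covariate.

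Of 16 monocyte and macrophage markers 5 rose, among them Fcgr2b (1.17 ± 0.29), Fcgr3 (1.48 ± 0.42) and Gpnmb (2.09 ± 0.36), and Cd163 fell (-1.52 ± 0.27, or -2.07 with 1 and -1.0 with 100 as the added constant). The defining markers Csf1r (3997, 5361 and 7505 and 5177, 8609 and 9377) and Adgre1, or F4/80 (124, 209 and 237 and 225, 478 and 379), were not called, and Itgam lay between 37.0 and 117. The summed signal of the 25 marker genes on the array was 21036 to 50349 in the minus and 23170.3 to 76190.2 in the plus arrays, and 5 of the 16 tested were called higher and 1 lower. The part of these markers in the inflammatory and chemokine results was not tested. Erythroid markers and heme synthesis genes fell in 11 of 28 and rose in 2, with a median of -0.66 and pair medians of -0.62, -0.86 and -0.63. Car1, a carbonic anhydrase, gave 8378, 21113 and 3132 in the minus arrays and 1630.0, 661 and 302 in the plus arrays (-3.50 ± 0.58). The blood group genes Icam4 (-2.13 ± 0.27), Kel (-2.05 ± 0.24) and Rhd (-1.82 ± 0.28) fell, and Gfi1b, an erythroid and megakaryocyte repressor, rose from 1559, 1495 and 1414 to 5242, 4700.1 and 4350.1 (1.65 ± 0.36), as did Sptb from near the level filter (0.86 ± 0.27). Gata1, at 3597, 4261 and 2630.2 and 1676, 1573 and 1626, was not called. The summed signal of the 34 genes of this list on the array was 44101 to 103218 in the minus and 35085 to 53211 in the plus arrays. The falls numbered 8, 13 and 4 without pair A, B or C, and 5 to 10 without single control arrays (7 without minus array B, 7 without plus array B and 5 without plus array C), and 7 with the beta-actin covariate. The rises among monocyte and macrophage markers numbered 4, 5 and 3 without pair A, B or C, and 3 to 5 without single control arrays (3 without minus array A and 3 without minus array B). The falls among monocyte and macrophage markers numbered 1, 1 and 0 without pair A, B or C, and 1 whichever single control array was left out. The rises among erythroid markers and heme synthesis genes numbered 1, 1 and 0 without pair A, B or C, and 1 whichever single control array was left out (1 without minus array A, 1 without minus array B, 1 without minus array C, 1 without plus array A, 1 without plus array B and 1 without plus array C), and 0 with the beta-actin covariate. The calls of Fcgr2b, Gfi1b and Sptb were lost with the beta-actin covariate.

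Among 18 megakaryocyte and platelet genes, Itgb3 (1.60 ± 0.30) and Plek (1.10 ± 0.22) rose and the platelet glycoproteins Gp5 (-1.74 ± 0.22) and Gp9 (-1.25 ± 0.25) fell. The share of this list that was called, 22.2%, was near the 22.1% over all genes. Cpa3, the carboxypeptidase of mast cells and early progenitors, fell from 3329, 2732 and 2646 to 1058, 497 and 611 (-2.02 ± 0.29), as the only one of 6 mast cell and basophil markers tested that limma called. H2-DMa, of antigen loading, fell (-1.32 ± 0.26) among 7 genes of MHC class II and dendritic cells. Of 6 T cell markers that passed the level filter, Cd28 rose (2.65 ± 0.29) from 24.4, 111 and 71.6 to 497, 687 and 505, and of 3 natural killer cell markers Klrd1 rose (1.56 ± 0.46), while the defining genes Cd3d, Cd3e and Ncr1 lay at or below 94.5 in every control array. The summed signal of 15 T cell markers was 1737 to 1860.1 in the minus and 2843 to 4349 in the plus arrays. The sum leans on its brightest member, Lat, at 784, 754 and 819 in the minus and 1458, 1938 and 1643 in the plus arrays, and on Cd28. Cd3d, Cd3g and Cd8a were lower in the plus array of each pair, so the sum does not describe the markers as a set. Neither of the 2 B cell markers tested was called by limma, and 1 was lower at an unadjusted p below 0.05. No eosinophil marker passed the level filter. None of the 4 sex-linked genes was called by limma or had an unadjusted p below 0.05, and their median of 0.10 turned to -0.097 with arrays centred on their medians. The rises among megakaryocyte and platelet markers numbered 2, 2 and 1 without pair A, B or C, and 2 to 5 without single control arrays (5 without plus array C), and 1 with the beta-actin covariate. The falls among megakaryocyte and platelet markers numbered 2, 6 and 1 without pair A, B or C, and 2 to 3 without single control arrays. The falls among mast cell and basophil markers numbered 1, 2 and 1 without pair A, B or C, and 1 to 3 without single control arrays (3 without minus array A and 2 without plus array B). The falls among MHC class II and dendritic cell markers numbered 1, 2 and 0 without pair A, B or C, and 1 to 2 without single control arrays (2 without minus array B), and 2 with the beta-actin covariate. The rises among T cell markers numbered 1, 2 and 1 without pair A, B or C, and 1 whichever single control array was left out, and 2 with the beta-actin covariate. The calls of Plek and Klrd1 were lost with the beta-actin covariate.

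Other genes with the largest or firmest differences belonged to no list. Bhlhe40, a repressor of the clock and of activated leukocytes, rose from 34.9, 178 and 83.2 to 1203, 1553 and 1520.3 (3.62 ± 0.39), and Mir22hg, the host transcript of a microRNA, from 34.6, 159 and 53.7 to 655, 1970.0 and 1155 (3.52 ± 0.24). Basp1 rose by nearly the same amount in each pair (2.41, 2.21 and 2.28). Esrp2, a splicing factor of epithelia (3.64 ± 0.35), Megf10, an engulfment receptor (3.72 ± 0.58), Glrp1 (3.32 ± 0.35) and Ndrg4 (3.51 ± 0.62) were among the largest rises. Among the falls, Gatm, the first enzyme of creatine synthesis, gave 1491, 871 and 1688 in the minus arrays and 222, 75.0 and 318 in the plus arrays (-2.65 ± 0.23, limma adjusted p = 4.44e-05). The histone gene H3c4 (-2.60 ± 0.24), the sodium pump subunit Atp1b2 (-3.59 ± 0.63), choline dehydrogenase Chdh (-2.87 ± 0.48), Jchain, which joins antibody chains (-2.59 ± 0.53), and Tuba8 (-2.46 ± 0.25) fell. Dctpp1, which cleans the nucleotide pool (-2.11 ± 0.21), Rangrf (-1.99 ± 0.18), the deiodinase Dio2 (-2.48 ± 0.25) and the channel gene Kcng1 (-2.57 ± 0.24, or -4.06 with 1 and -1.59 with 100 as the added constant) had small p-values.

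Some called genes owed most of their difference to 1 pair, a spread that the SE of the fit does not show. Ahr, the aryl hydrocarbon receptor, differed by 0.34, 4.09 and 1.65 in pairs A, B and C, Ednrb, an endothelin receptor, by 0.05, 3.78 and 1.96, and Cdhr4 by 0.25, 3.93 and 1.75. Csf1, the macrophage growth factor, differed by 1.56, 4.24 and 0.62, and Errfi1, an inhibitor of the EGF receptor, by 0.70, 4.63 and 1.85 (mean 2.40 ± 0.56, or 3.62 with 1 and 1.68 with 100 as the added constant). Tmem191c differed by -1.19, -4.44 and -1.06 and Gm20199 by -0.47, -4.27 and -1.05. In these 7 genes pair B led, whereas in Ccl5 and Relb it was pair A. Across all tested genes, which are not independent replicates, the pair differences correlated at 0.606 between A and B and at 0.699 between A and C and between B and C. The calls of Ahr, Csf1, Errfi1 and Gm20199 were lost with the beta-actin covariate.

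Whether the controls' difference was another one in the Stat5 knockouts was tested by the interaction in the same fit. No gene of 10583 was called by limma (0.0%) and 223 had an unadjusted p below 0.05. Among the genes named here, Enah had the smallest interaction p, at 3.63 ± 0.40 in the controls and 1.23 in the knockouts (interaction -2.40 ± 0.57, limma adjusted p = 0.954). Batf3 stood at 2.35 and 0.38, Cish at 2.31 and 1.16, and Socs3 at 2.48 and 0.63, all with the same adjusted p. Csf2rb2 differed by 3.74 in the knockouts, against 4.26 in the controls. By itself the difference in the knockouts was called in 956 genes upward (9.03%) and 1029 downward (9.72%). The minus array titled KC- has a treatment protocol that names a control, and without it 1141 genes were called higher and 1259 lower in the controls. A p that misses the threshold does not show that the genotypes respond alike.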

How the data were processed

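Each array hybridised RNA of 1 sample, and 12 arrays in 4 groups of 3 were used. The deposited values are linear intensities, which the authors made with MAS5 per the submitters' processing notes; its version is not given in the sources used here. The authors' table held 45101 probe sets: 34958 with 1 symbol (34754 matched to RefSeq), 932 with several and 9211 not listed; only the first were used. From the deposited intensities log2(signal + 32) was computed, and the probe set with the highest mean stood for a gene. Genes above the level filter were tested with limma 3.58.1 in R 4.3.3 (lmFit, eBayes with trend) in 1 model of the 4 groups with the title form as a block, which left 6 residual degrees of freedom. Tests are two-sided with Benjamini-Hochberg adjustment over 10583 genes. The block rests on shared title forms: deviations from the group means correlated at 0.41 to 0.77 between arrays of one form and at -0.64 to 0.28 between arrays of different forms. The knockout arrays add only to the spread. The 56 gene lists hold 1395 entries, 1277 of them on the array. Named genes were the called genes with the largest rises and falls of one sign in all 3 pairs, over all genes and over those bright in both groups, those with the smallest p, those with the widest range between pairs, the called members of each list with the smallest p or against its main direction, any member given as not called, and Stat5a and Stat5b. The members and lists were chosen with earlier results of these data known. The script was tested on simulated data. The number of arrays limits the precision.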

Additional observations from a re-analysis of the deposited data

How the results depend on the processing

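The title form as a block decided many calls: the model without the replicate block called 279 genes higher and 191 lower, with the same estimates, and the cause was not tested beyond the pairing described under the processing. In that model 8 of 48 ribosome biogenesis genes and 4 of 25 nucleotide synthesis genes fell. Rises were called in 6 of 16 stress regulators, 8 of 22 cholesterol synthesis genes, 4 of 22 inflammatory activation genes and 5 of 23 AHNAK, annexin, S100 and EMP genes. Centring the arrays on their medians gave 728 and 1892, array weights gave 1873 and 2278, and the beta-actin 3' to 5' ratio as a covariate gave 717 and 802. Leaving out 1 replicate or 1 control array gave 332 to 1376 genes higher and 239 to 1698 lower, the fewest without pair C and the most without pair B; the cause was not tested. In all other alternatives (control arrays alone, other constants, level filters, mean of probe sets, quantile normalization, no trend, the array of conflicting labels left out or counted as a control) both counts stayed within 1.5 times of 1119 and 1225. With the mean of a gene's probe sets, 3 named genes turned sign: Iars2 was at 0.20, Lars2 at 0.067 and Psma1 at 0.10. Of the 280 named genes that were called, 102 kept their call in every alternative that gave them a value and 178 lost it in 1 or more. The stricter level filter gave a value for 254 of the named genes and the mean of probe sets for 269, and 88 of the 102 had one in all 23 alternatives. The losses numbered 154 without the block, 117 without pair C, 79 with the covariate, 74 without pair A, 45 with the mean of probe sets and 16 without pair B. Dim genes have signals near the constant of 32, so their differences are less certain.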
